A study of Mus musculus with 8 samples.

Results

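The Hedgehog pathway genes described here are 9 of the 55276 gene symbols kept from RNA-seq tables of fibro-adipogenic progenitors (FAPs), the mesenchymal progenitors that support muscle regeneration. They were chosen by symbol: the co-receptors Gas1, Boc and Cdon, the receptor Ptch1, the ligand-binding protein Hhip, the membrane transducer Smo, and the transcription factors Gli1, Gli2 and Gli3. The rule itself reads no measured value, although the genes were picked with earlier results of these data known. All 9 passed the filter on low values in every comparison. The study asked how FAPs respond to muscle injury when they lack Osr1, a zinc finger transcription factor. FAPs were sorted from tibialis anterior muscle at 3 or 7 days after a freeze-pierce injury (dpi), from mice aged 4 to 6 months.

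Control (Ctrl) mice were Osr1flox/+ CAGG Cre+ and knockout (cKO) mice were Osr1flox/flox CAGG Cre+, with 2 libraries for each genotype and day. All 8 libraries therefore came from mice that carried the Cre, received tamoxifen, were injured and had at least 1 floxed Osr1 allele, so that Ctrl is a heterozygous and not a wild-type state. CAGG-CreER acts in all cell types, and recombination puts eGFP in place of Osr1. Cells were sorted for that eGFP after other lineages had been gated out, so both genotypes were represented by recombined cells with an active Osr1 locus. Each library held 1 mouse at 3 dpi and 4 pooled mice at 7 dpi. The methods name a pair of sequencing instruments, whereas the labels give 1 read length of 75 bases throughout, and a difference between days cannot be told apart from one between pool sizes or instruments.

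Hedgehog ligands are secreted proteins. Ptch1 holds Smo inactive until a ligand binds, and Gas1, Boc and Cdon present the ligand to Ptch1; active Smo at the primary cilium then changes how the Gli factors are processed. Gli2 is the main activator, Gli3 mostly acts as a repressor, and Gli1, Ptch1 and Hhip are themselves transcribed when the pathway is active, so that Gli1 is widely used as a readout and Ptch1 and Hhip act as feedback inhibitors. In muscle, FAPs are known to carry primary cilia and to respond to Hedgehog ligand, which limits their conversion to fat.

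The deposited values are TPM, each gene's share of all transcripts after correction for gene length, scaled to the same sum (1000000) in every library, so levels can be compared between genes. Depth recovered from the low TPM values was between 46401548 and 51096350 fragments per library at 3 dpi and between 36516513 and 41163476 at 7 dpi. Osr1, the targeted gene, stood at 105 and 91.0 TPM in Ctrl and 70.7 and 71.9 TPM in cKO at 3 dpi, and at 67.6 and 71.6 TPM in Ctrl and 64.4 and 60.8 TPM in cKO at 7 dpi. It was lower in cKO at both days without overlap, but 1 value per gene sums exons inside and outside the floxed part and does not measure recombination. All 8 FAP and fibroblast markers were present, with a summed level between 26758.7 and 54219.8 TPM, whereas the 7 leukocyte markers summed to between 11.0 and 58.9 TPM, most of it from Cd68 and Lyz2, with Ptprc at or below 0.216 TPM. Ctrl replicate 1 at 3 dpi held the lowest FAP marker sum, and several values below depend on it. Its Col1a1 (12403.8 TPM), Col3a1 (6401 TPM), Cd34 and Lum were the lowest of all libraries. Its Pdgfra (365 TPM) and Ly6a (5407 TPM) were the highest, so that the sum does not rank libraries by FAP content.

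Few of the Hedgehog genes passed a test between genotypes and more passed between days, which also held for all genes tested. Gli1, Gli2, Gas1 and Boc were called higher at 7 dpi in both genotypes. At 3 dpi, 1 of 9 genes was called higher in cKO and 0 lower (Cdon, log2 fold change 0.33), by an unadjusted p under 0.05 and a fold over 1.2 that 6.27% of the 15699 genes tested passed in either direction, with 2.38% higher and 3.89% lower. At 7 dpi, 0 of 9 were called by an adjusted p under 0.1 and the same fold, a rule passed by 0.0664% of 16578 genes. At an unadjusted p under 0.05, 3 of 9 were lower in cKO at 7 dpi (Gli2, Gli3 and Boc), beside 5.91% of all genes, and 0 were higher, beside 5.21%. Between days, 6 of 9 genes were higher at 7 dpi in Ctrl (background 21.3%) and 1 was lower (24.1%), and in cKO, 4 were higher (18.2%) and 0 lower (21.9%). The day calls used an adjusted p under 0.05 and a fold over 1.2 over 17371 genes, of which 45.4% passed in Ctrl and 40.1% in cKO. All fold changes are from limma, on the log2(TPM + 1) scale after scaling, which understates the change of low genes such as Hhip. With 2 libraries against 2, an exact two-sided permutation test of a single gene cannot go below p = 0.333, so that tests rest on the spread that limma estimates over all genes.

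**Figure D1:**
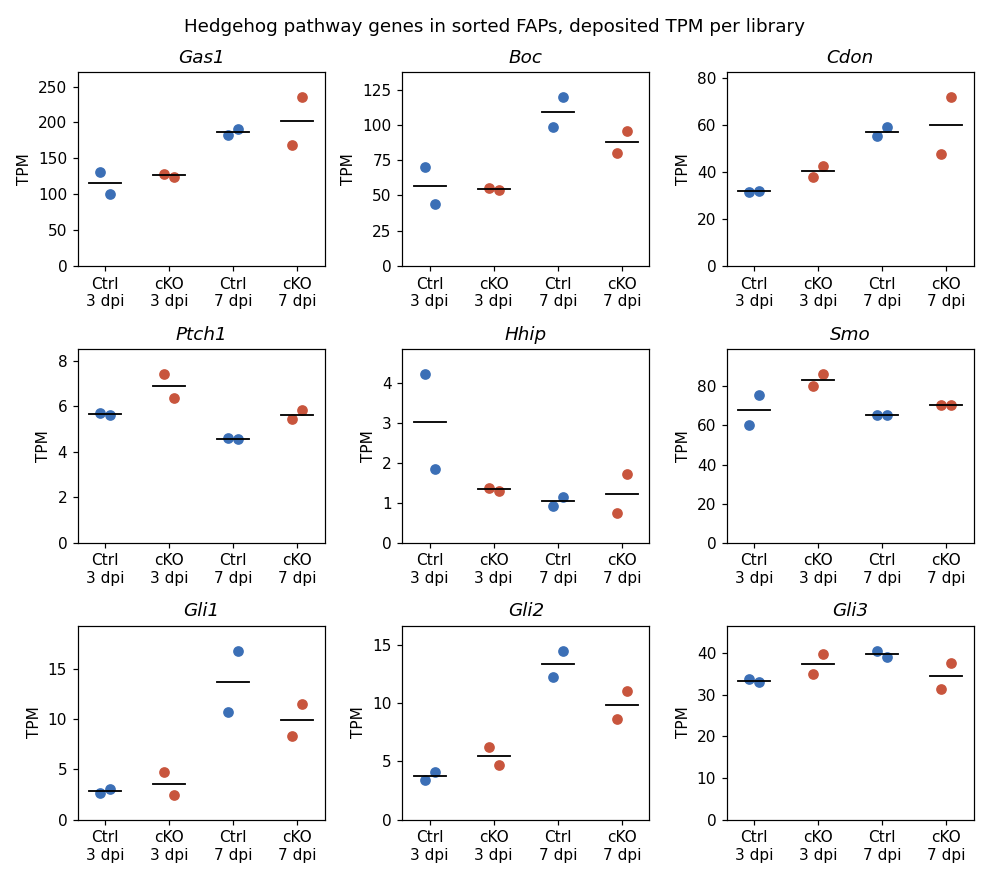
Deposited TPM (vertical axes, each from 0) of the 9 genes in the 8 libraries, by group on the horizontal axes; points are libraries, blue for Ctrl and red for cKO, and black lines are group means of 2 libraries. Gli1 reached 10.7 and 16.8 TPM in Ctrl at 7 dpi against 2.60 and 3.02 TPM at 3 dpi, whereas Ptch1 stayed between 4.54 and 7.41 TPM throughout.

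Transcripts of the 3 Hedgehog ligands were each under 1 TPM in every library. Shh, the ligand of limb and neural tube patterning, was at 0 in 7 of 8 libraries and at 0.0318 TPM (1 fragment) in Ctrl replicate 2 at 7 dpi, where 3 fragments, the limit that a count of 0 allows, correspond to between 0.0805 and 0.110 TPM. Ihh, the ligand of growth plate cartilage, lay between 0.0501 and 0.410 TPM (2 to 12 fragments). Dhh, which is known from Schwann cells and the testis, lay between 0.0898 and 0.569 TPM (5 to 27 fragments). These limits cover counting error only.

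Of the 8 genes for ligands and their release, 6 were tested. Scube2, which encodes a secreted protein that helps release lipid-modified ligand, was at 0.696 and 0.927 TPM in Ctrl and 1.62 and 1.69 TPM in cKO at 3 dpi, and at 19.97 and 19.4 TPM in Ctrl and 16.4 and 14.03 TPM in cKO at 7 dpi. Thus both cKO libraries lay above Ctrl at 3 dpi and below Ctrl at 7 dpi, and every library at 7 dpi lay far above every one at 3 dpi. Scube2 was the 1 gene of this list called at 3 dpi (log2 fold change 0.55 ± 0.16 SE, limma adjusted p = 0.772), where 2.38% of all genes were called higher. At 7 dpi 0 of 6 were called, beside 0.0664% of all genes, and Scube2 had a value of -0.48. Between days, 3 of 6 were higher at 7 dpi in Ctrl, namely Scube2 (3.58, adjusted p = 0.000124), Scube1 (0.59) and Dhh (0.31), and 2 of 6 in cKO, namely Scube2 (2.55) and Scube1 (0.50). Scube1 was at or below 0.846 TPM in every library, with 3 and 30 fragments (0.0245 and 0.240 TPM) in Ctrl at 3 dpi. The shares of all genes called higher between days were 21.3% in Ctrl and 18.2% in cKO. The list's median log2 fold change between days was 0.37 in Ctrl and 0.23 in cKO, beside 0.02 for all genes tested in either genotype.

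Gas1, a membrane-anchored co-receptor with a single exon at chr13:60174405-60177365, had the highest level of the 9 genes in all 4 groups. It was at 131 and 100.1 TPM in Ctrl and 128 and 125 TPM in cKO at 3 dpi, and at 182 and 191 TPM in Ctrl and 169 and 235 TPM in cKO at 7 dpi. The genotypes overlapped at both days, while all 4 libraries at 7 dpi exceeded all 4 at 3 dpi. The difference between genotypes was 0.14 at 3 dpi (95% interval from -0.28 to 0.56) and -0.04 at 7 dpi (-0.40 to 0.32), and the latter became 0.09 without scaling.

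Boc, an immunoglobulin-family co-receptor at chr16:44485049-44558897, was at 70.1 and 44.0 TPM in Ctrl and 55.2 and 54.2 TPM in cKO at 3 dpi. At 7 dpi it was at 98.5 and 119.8 TPM in Ctrl and 80.4 and 95.7 TPM in cKO. The cKO libraries fell between the 2 Ctrl libraries at 3 dpi and below both at 7 dpi. The log2 difference was -0.02 at 3 dpi (95% interval from -0.63 to 0.58) and -0.44 ± 0.12 (SE) at 7 dpi, where the unadjusted p was under 0.05 and the adjusted p was 0.306. Boc passed the rule for 7 dpi only without Ctrl replicate 1 of that day, with a value of -0.57 and an adjusted p of 0.0997, and that fit leaves Ctrl with 1 library, which is assumed to vary like cKO.

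Cdon, the paralog of Boc at chr9:35421128-35507652, was at 31.6 and 31.8 TPM in Ctrl and 37.8 and 42.7 TPM in cKO at 3 dpi, and at 55.1 and 59.1 TPM in Ctrl and 47.8 and 71.8 TPM in cKO at 7 dpi. Both cKO libraries were above Ctrl at 3 dpi, while at 7 dpi they lay on either side of the Ctrl pair. The log2 difference at 3 dpi was 0.33 ± 0.13 (SE, 95% interval from 0.0014 to 0.66, limma adjusted p = 0.784), which met the unadjusted limit only narrowly. This call was lost when any 1 of the 4 libraries was left out and under 8 of 10 other settings, among them the deposited TPM without scaling. At 7 dpi the difference was -0.09 (95% interval from -0.53 to 0.34), or 0.04 without scaling.

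The 3 co-receptors were higher at 7 dpi than at 3 dpi in every library, in both genotypes. In Ctrl, Boc rose by 1.03 ± 0.19 (SE, adjusted p = 0.00501), Cdon by 0.91 ± 0.17 (0.00446) and Gas1 by 0.78 ± 0.16 (0.00702). In cKO, Boc rose by 0.61 (adjusted p = 0.0417) and Gas1 by 0.59 (0.0236), whereas Cdon had a value of 0.47 that missed the threshold (0.0574). The Ctrl calls of Gas1, Boc and Cdon were kept whichever library was left out. In cKO the call of Gas1 was kept in 5 of 8 such fits and that of Boc in 2 of 8. Both were lost without replicate 2 of either day, where Gas1 had values of 0.55 (without the 3 dpi library) and 0.40 (without the 7 dpi library) and Boc values of 0.57 and 0.52.

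Ptch1, the receptor and a feedback gene of the pathway at chr13:63508328-63573598, was at 5.69 and 5.60 TPM in Ctrl and 7.41 and 6.37 TPM in cKO at 3 dpi. At 7 dpi it was at 4.58 and 4.54 TPM in Ctrl and 5.43 and 5.82 TPM in cKO. Both cKO libraries were above both Ctrl libraries at each day, and the scaled values did not overlap either, a pattern that 5.84% of the 15043 genes tested at both days showed. The log2 differences were small, at 0.24 (95% interval from -0.26 to 0.74) and 0.14 (-0.20 to 0.48), and neither passed a test (limma adjusted p = 0.873 at 3 dpi and adjusted p = 0.707 at 7 dpi). Between days Ptch1 was not called, at -0.19 in Ctrl (-0.56 to 0.17) and -0.31 in cKO (-0.67 to 0.06).

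Hhip, a membrane protein that sequesters ligand, encoded at chr8:79965851-80058006, had the lowest level in 3 of 4 groups, with 64 to 478 recovered fragments per library. It was at 4.23 and 1.84 TPM in Ctrl and 1.38 and 1.30 TPM in cKO at 3 dpi, and at 0.920 and 1.16 TPM in Ctrl and 0.733 and 1.72 TPM in cKO at 7 dpi. A single library, Ctrl replicate 1 at 3 dpi, stood far above the other 7. The genotype difference at 3 dpi was -0.72 ± 0.32 (SE, limma adjusted p = 0.821) and became -0.29 without that library. In Ctrl, Hhip fell by 0.88 between days (adjusted p = 0.0498), a call that was lost in 6 of 8 fits that each left out 1 library and had a value of -0.47 without Ctrl replicate 1 of 3 dpi. In cKO it differed by -0.14 (95% interval from -0.86 to 0.57).

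Smo, the transducer, encoded at chr6:29735503-29761365, was at 60.1 and 75.8 TPM in Ctrl and 79.9 and 86.3 TPM in cKO at 3 dpi, and at 65.3 and 65.3 TPM in Ctrl and 70.5 and 70.3 TPM in cKO at 7 dpi. The deposited cKO values were above Ctrl at both days, but at 7 dpi the scaled values overlapped. The log2 difference was 0.29 at 3 dpi (95% interval from -0.11 to 0.70, adjusted p = 0.831) and -0.02 at 7 dpi (-0.20 to 0.15), where it was 0.11 without scaling. The 3 dpi value became 0.12 without Ctrl replicate 1 and 0.46 without Ctrl replicate 2, and the latter passed the rule for that day. So did Boc (-0.35) and Hhip (-1.16) in that fit, in which 2800 of 15315 genes passed. Without scaling the median of all genes was also 0.11 at 7 dpi. Between days Smo differed by 0.03 in Ctrl (-0.29 to 0.35), which turned to -0.05 without scaling, and by -0.30 in cKO (-0.62 to 0.02).

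Of the 7 members of the wider reception list that were tested, 0 were called between genotypes. Of all genes, 6.27% were called at 3 dpi and 0.0664% at 7 dpi. At an unadjusted limma p under 0.05 at 7 dpi, 0 were higher in cKO and 0 lower. Between days, Gpc3 and Gpc6 were higher and Gpc4 lower at 7 dpi in Ctrl, by 1.51, 0.91 and -0.66 on the log2 scale. These are glypicans, cell-surface heparan sulfate proteoglycans, of which Gpc3 is known to compete with Ptch1 for ligand. In cKO, Gpc3 rose by 1.46 and Gpc4 fell by 0.45. Of all genes, 21.3% were called higher and 24.1% lower at 7 dpi in Ctrl, and 18.2% and 21.9% in cKO.

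The Gli factors are encoded by related genes, and the stretch of 90 coding bases in which they are most alike is shown because the 3 genes gave different patterns and their reads could in principle be confused. The letters come from the GENCODE transcripts (GRCm38), and capitals mark the 73 bases that are identical in all 3.
Gli1: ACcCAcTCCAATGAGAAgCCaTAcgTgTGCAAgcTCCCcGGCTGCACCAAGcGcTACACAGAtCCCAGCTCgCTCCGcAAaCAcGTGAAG
Gli2: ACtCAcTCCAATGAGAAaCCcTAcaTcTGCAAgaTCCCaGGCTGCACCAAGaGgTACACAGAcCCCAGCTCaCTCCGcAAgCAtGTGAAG
Gli3: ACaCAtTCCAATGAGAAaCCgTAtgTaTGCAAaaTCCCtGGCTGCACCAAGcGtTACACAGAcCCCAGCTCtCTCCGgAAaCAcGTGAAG
Even in this stretch each gene carries bases of its own. Over the whole coding sequence the longest identical run was 23 bases between Gli1 and Gli2, 14 between Gli1 and Gli3 and 25 between Gli2 and Gli3, all under the read length of 75. The same held for Boc and Cdon, with 31 bases. On the other strand, exons of Gas1 overlap Gm48488 over 589 bp and those of Gli1 overlap Gm47200 over 265 bp and Arhgap9 over 62 bp, those of Gli3 overlap Gm6556 over 188 bp and those of Hhip overlap Gm27820 over 175 bp, and reads of such stretches cannot be told apart if strand was not used in counting. The highest level of any of these partners was 2.21 TPM (Gm6556).

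Gli1 lies on chromosome 10 of mm10, at chr10:127329882-127341974 on the minus strand. It was at 2.60 and 3.02 TPM in Ctrl and 4.71 and 2.42 TPM in cKO at 3 dpi, and at 10.7 and 16.8 TPM in Ctrl and 8.37 and 11.5 TPM in cKO at 7 dpi. The genotypes overlapped at both days in the deposited values, and all libraries at 7 dpi lay above all at 3 dpi. The log2 genotype difference was 0.22 at 3 dpi (95% interval from -0.58 to 1.01) and -0.54 at 7 dpi (-1.12 to 0.05, limma adjusted p = 0.427). The 7 dpi value was between -0.84 (without Ctrl replicate 1) and -0.24 (without Ctrl replicate 2) when 1 library was left out. Between days Gli1 rose by 1.99 ± 0.31 (SE, adjusted p = 0.00236) in Ctrl and by 1.23 ± 0.31 (0.0179) in cKO, and the Ctrl call was kept whichever library was left out. The cKO call was lost without cKO replicate 2 of 3 dpi (0.84) or of 7 dpi (1.06). Gli1 was the member with the largest rise in both genotypes. On the deposited scale its mean at 7 dpi was 4.88 times that at 3 dpi in Ctrl and 2.78 times in cKO.

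Gli2, at chr1:118834132-119053619 on the minus strand, was at 3.39 and 4.09 TPM in Ctrl and 6.28 and 4.72 TPM in cKO at 3 dpi. At 7 dpi it was at 12.2 and 14.5 TPM in Ctrl and 8.64 and 11.0 TPM in cKO. The cKO libraries were thus both above Ctrl at 3 dpi and both below at 7 dpi. The log2 difference was 0.45 ± 0.23 at 3 dpi (SE, limma adjusted p = 0.831) and -0.53 ± 0.15 at 7 dpi (adjusted p = 0.306). From 3 to 7 dpi Gli2 rose by 1.67 ± 0.20 in Ctrl (adjusted p = 0.000899) and by 0.68 ± 0.20 in cKO (0.0320). The Ctrl call was kept whichever library was left out, whereas that in cKO was kept in 3 of 8 fits and was lost without cKO replicate 2 of 3 dpi (0.49) or of 7 dpi (0.56).

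Gli3, at chr13:15463235-15730026 on the plus strand, was the most abundant of the 3 in every group. It was at 33.8 and 33.0 TPM in Ctrl and 34.9 and 39.7 TPM in cKO at 3 dpi, and at 40.5 and 39.1 TPM in Ctrl and 31.4 and 37.5 TPM in cKO at 7 dpi. As for Gli2, the cKO libraries lay above Ctrl at 3 dpi and below it at 7 dpi. The log2 difference was 0.15 at 3 dpi (95% interval from -0.18 to 0.49) and -0.33 ± 0.10 at 7 dpi (SE, limma adjusted p = 0.315). The rise of Gli3 between days in Ctrl was small (0.32, adjusted p = 0.0475), and its call was lost in each of 8 fits that left out 1 library. In cKO Gli3 differed by -0.18 between days (-0.43 to 0.08).

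**Figure D2:**
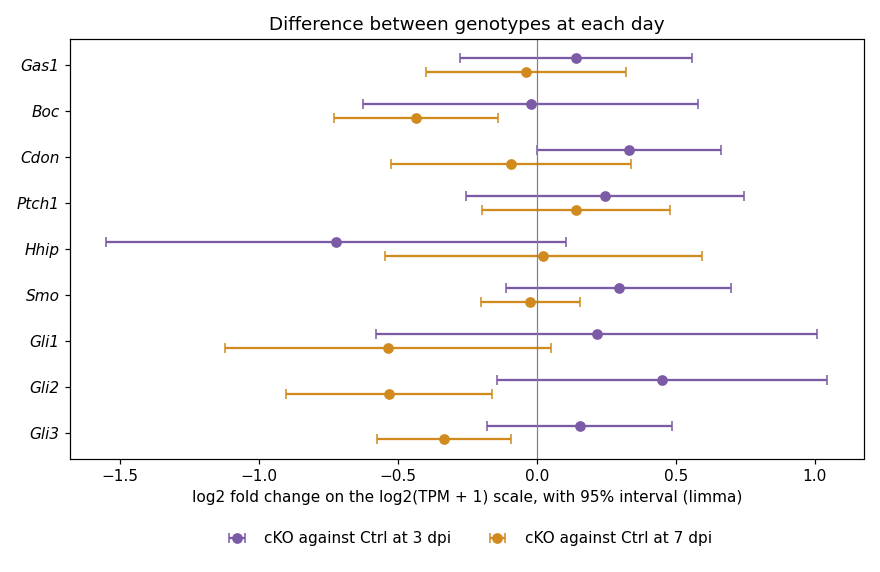
Log2 fold change of cKO against Ctrl on the log2(TPM + 1) scale (horizontal axis) for the 9 genes (vertical axis), at 3 dpi in purple and 7 dpi in orange; points are limma estimates from 4 libraries a day and bars 95% intervals. The intervals of Gli2, Gli3 and Boc at 7 dpi lie below 0 and that of Cdon at 3 dpi starts just above it.

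The genotype and day comparisons share libraries, so their values are given side by side only. Whether the genotype difference itself differed between days was tested as an interaction over all 8 libraries. Of 17371 genes, 0 had an adjusted p under 0.05, the smallest being 0.141, and 1177 (6.78%) had an unadjusted p under 0.05. Under that unadjusted limit, 2 of 9 Hedgehog genes had a difference that was lower at 7 dpi (3.15% of all genes in that direction), namely Gli2 (-0.99 ± 0.28 SE, limma adjusted p = 0.625) and Gli3 (-0.50 ± 0.16, adjusted p = 0.659). Gli1 had an interaction value of -0.76 (95% interval from -1.78 to 0.27) and Boc one of -0.42 (-1.07 to 0.22). The change from a higher to a lower level in cKO without overlap of scaled values was seen for Gli2 and Gli3 among the 9, and for 3.26% of the 15043 genes tested at both days.

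The libraries of the genotypes were also compared without a test. At 3 dpi the deposited cKO libraries lay above Ctrl without overlap for 5 of 9 genes (Gli2, Gli3, Ptch1, Smo and Cdon), beside 18.2% of all genes, and below it for 1 (Hhip), beside 18.0%. After scaling at 7 dpi, cKO lay above Ctrl for 1 gene (Ptch1), beside 23.0%, and below it for 4 (Gli1, Gli2, Gli3 and Boc), beside 22.8%. On the deposited scale these were 2 (42.8%) and 3 (10.7%), since the cKO libraries at 7 dpi were shifted as a whole. The median log2 fold change of the 9 genes was 0.22 at 3 dpi and -0.09 at 7 dpi, where the medians of all genes were 0.01 and 0.00.

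**Figure D3:**
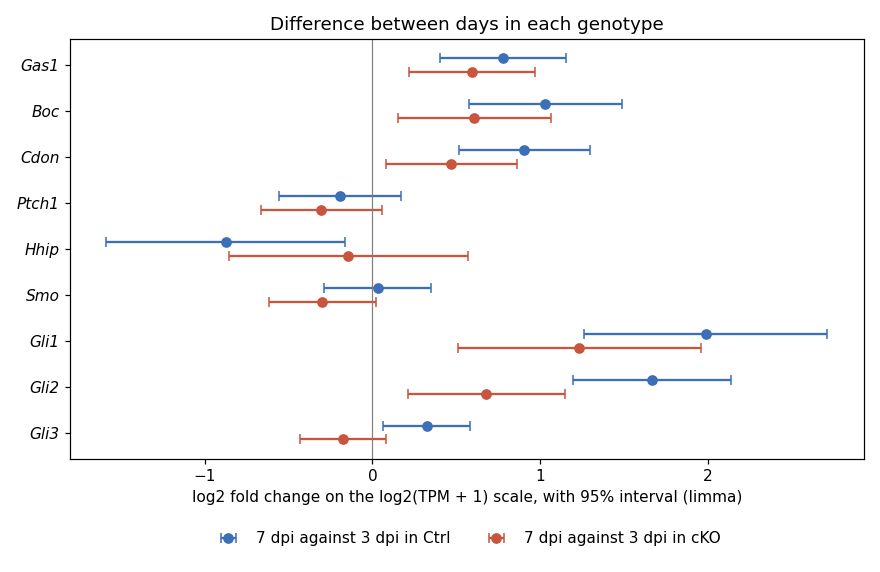
Log2 fold change of 7 dpi against 3 dpi on the log2(TPM + 1) scale (horizontal axis) for the 9 genes (vertical axis), in Ctrl (blue) and cKO (red); points are limma estimates from a fit of all 8 libraries and bars 95% intervals. Gli1 and Gli2 had the largest values in both genotypes, with 1.99 and 1.67 in Ctrl and 1.23 and 0.68 in cKO.

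Across both genotypes the order of levels changed with the day among the low genes and little among the high ones. Gas1 was followed by Smo and Boc at 3 dpi and by Boc and Smo at 7 dpi, and Smo and Boc overlapped in Ctrl at 3 dpi. Cdon and Gli3 came next in each group, and overlapped in cKO at 3 dpi, as Smo and Cdon did in cKO at 7 dpi. At 3 dpi Ptch1 lay above all 3 lowest genes (Gli2, Gli1 and Hhip), whereas at 7 dpi Gli1 and Gli2, which overlapped each other, both lay above Ptch1 and Hhip.

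The 3 genes known as readouts of pathway activity did not move together between days. Gli1 was called higher at 7 dpi in both genotypes, Ptch1 was not called in either, and Hhip was called lower in Ctrl, a call that 7 of 10 other settings also lost, besides the fits without single libraries. The genes most like each of them over the 8 libraries were Gm16574, Zfp398 and Naalad2 for Gli1, Bud31, Usf2 and Sgsm3 for Ptch1, and Hsdl2, Zfp36l2 and Tctn2 for Hhip, with Pearson r of log2(TPM + 1) between 0.956 and 0.993 among 14171 genes. The 8 points share their groups in pairs and separate by day, and these values are descriptions.

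Promoter sequence is shown for Gli2, which rose from 3 to 7 dpi, and for Ptch1, which was not called, as the 120 bases before the RefSeq start (GRCm38.p6), 5′ to 3′ on the gene's own strand. Capitals mark a GC box (GGGCGG or CCGCCC).
Gli2: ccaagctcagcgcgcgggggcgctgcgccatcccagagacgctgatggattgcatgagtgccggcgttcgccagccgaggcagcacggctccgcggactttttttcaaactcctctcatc
Ptch1: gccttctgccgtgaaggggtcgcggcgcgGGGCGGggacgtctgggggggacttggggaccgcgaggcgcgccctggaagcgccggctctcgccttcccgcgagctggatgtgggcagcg
These are chr1:119053620-119053739 and chr13:63565736-63565855, both on the minus strand. Of the 9 genes, 7 have a promoter in the table used, Gli1 and Boc being the exceptions. The windows of Ptch1, Cdon and Gli3 lie wholly inside the gene spans given above, so that starts further upstream were not examined. The consensus bound by Gli factors, GACCACCCA or TGGGTGGTC on the other strand, was in 0 of these 7 windows of 300 bases and in 83 of 32851 promoters of the same length (0.253%). The GC box, which does not overlap that consensus in its letters, was in 5 of the 7 windows and in 35.7% of all promoters, and the G+C content of the 7 ranged from 44.7% (Cdon) to 76.3% (Ptch1), beside a median of 52.7%.

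Downstream of Smo, 0 of 24 cytoplasmic and 0 of 13 ciliary genes tested were called between genotypes at either day. Of all genes, 6.27% were called at 3 dpi and 0.0664% at 7 dpi. At an unadjusted limma p under 0.05 at 7 dpi, 2 cytoplasmic genes and 1 ciliary gene were lower in cKO and 0 higher. Under that limit 5.91% of all genes were lower and 5.21% higher. Between days, 5 of 24 cytoplasmic genes were lower at 7 dpi in Ctrl and 1 higher, and in cKO these counts were again 5 and 1. The shares lower were thus near those of all genes (24.1% and 21.9%). The 1 higher stood beside 21.3% of all genes in Ctrl and 18.2% in cKO. Prkar1a, a regulatory subunit of protein kinase A, fell by 0.53 in Ctrl and 0.55 in cKO. Efcab7, which anchors the Evc complex at the cilium, fell by 0.67 in Ctrl and 0.74 in cKO, and Sufu, which restrains the Gli proteins, fell by 0.46 (adjusted p = 0.0190) in Ctrl and 0.38 (adjusted p = 0.0429) in cKO. Ulk3, a kinase that acts on Gli proteins, rose by 0.51 in Ctrl and 0.74 in cKO.

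Sufu was at 18.6 and 17.8 TPM in Ctrl and 17.3 and 17.6 TPM in cKO at 3 dpi, and at 12.7 and 11.8 TPM in Ctrl and 14.4 and 13.2 TPM in cKO at 7 dpi, so that the days did not overlap. Among 13 cilium genes, 3 were higher and 1 lower at 7 dpi in Ctrl, where 21.3% and 24.1% of all genes were, and 1 and 1 in cKO, where 18.2% and 21.9% were. Arl13b, a ciliary membrane GTPase, rose by 0.89 in Ctrl and 0.79 in cKO. Tulp3, which carries receptors into the cilium and restrains the pathway, fell by 0.73 and 0.75, and Dync2h1, a motor of retrograde ciliary transport, rose by 0.79 in Ctrl. The median log2 fold changes between days were -0.03 and 0.09 in Ctrl for the cytoplasmic and ciliary lists, beside 0.02 for all genes.

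Genes known to be induced by Hedgehog in other mesenchyme moved in both directions between days. Of 16 tested, 1 was called higher and 1 lower in cKO at 3 dpi, beside 2.38% and 3.89% of all genes. At 7 dpi 0 were called, beside 0.0664% of all genes. At an unadjusted limma p under 0.05 at 7 dpi, 2 were higher and 4 lower, Osr1 among the latter, beside 5.21% and 5.91%. The 2 called at 3 dpi were Sfrp1, a secreted Wnt inhibitor (0.91, limma adjusted p = 0.773), and Osr1 itself (-0.45, adjusted p = 0.772). As Osr1 is the targeted gene, its lower level in cKO follows from the design and does not describe a response of this list. Between days, 5 were higher and 5 lower at 7 dpi in Ctrl, beside 21.3% and 24.1% of all genes, and 2 and 4 in cKO, beside 18.2% and 21.9%. Those with the smallest p in Ctrl were all lower: the cell cycle gene Ccnd1 (-2.93), the forkhead factor gene Foxf2 (-1.84) and the cyclin gene Ccnd2 (-0.81). The 5 called higher in Ctrl were Timp3 (1.84), Sfrp1 (1.24), Grem1 (1.18), Bmp4 (1.02) and Bcl2 (0.55). Osr1, the targeted gene, was among the 5 lower in Ctrl (-0.41). In cKO, Ccnd1, Foxf2 and Ccnd2 had values of -2.39, -1.72 and -0.76, and the 2 called higher were Grem1 (1.57) and Timp3 (1.29).

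**Figure D4:**
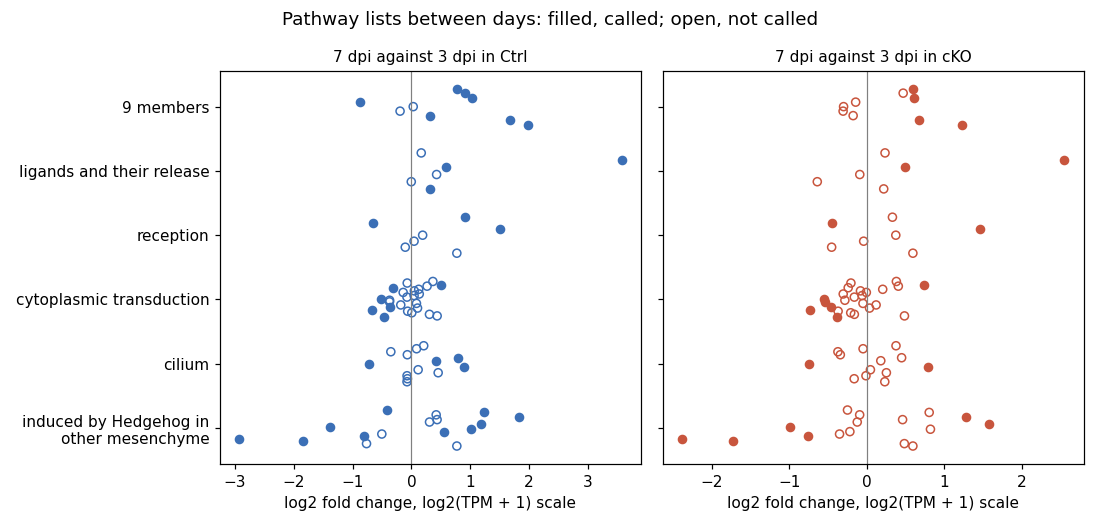
Log2 fold change of 7 dpi against 3 dpi (horizontal axes, log2(TPM + 1) scale) in Ctrl (left) and cKO (right) for the genes of each Hedgehog list (vertical axis; points are spread only for visibility). Filled points passed an adjusted p under 0.05 and a fold over 1.2, open points did not; the point farthest right is Scube2, at 3.58 in Ctrl and 2.55 in cKO, and the one farthest left is Ccnd1, at -2.93 and -2.39.

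Summed markers of other cells were higher at 7 dpi, except that the mural sums overlapped, and the tenocyte sums also differed between genotypes. The sums hide single markers. In the mural list Rgs5, Mcam and Myh11 were higher at 7 dpi in every library, whereas Cspg4 was lower. Tek gave the largest part of the endothelial sum and S100b that of the Schwann cell sum, while Kdr and Mbp overlapped between days. The summed level of the 3 tenocyte markers, Scx, Tnmd and Mkx, ranged from 5.22 to 9.29 TPM in Ctrl and 11.1 to 16.5 TPM in cKO at 3 dpi, and from 81.8 to 155 TPM in Ctrl and 287 to 389 TPM in cKO at 7 dpi, so that the genotypes did not overlap at either day. The 4 mural markers ranged from 24.7 to 46.0 TPM at 3 dpi and from 45.1 to 111 TPM at 7 dpi, the 4 myofibre markers from 8.36 to 14.2 TPM and from 41.9 to 71.0 TPM, and the 3 erythroid markers from 0 to 1.35 TPM and from 10.2 to 45.4 TPM. The 5 endothelial markers ranged from 17.2 to 44.4 TPM at 3 dpi and from 46.0 to 71.2 TPM at 7 dpi, the 5 muscle stem cell markers from 4.42 to 7.34 TPM and from 13.0 to 36.5 TPM, the 5 Schwann cell markers from 3.39 to 4.47 TPM and from 6.76 to 17.0 TPM, and the 7 leukocyte markers from 11.0 to 19.7 TPM and from 38.7 to 58.9 TPM. Their part in the differences of Gli1, Gli2, Gas1, Boc and Cdon between days, and that of the tenocyte markers in the genotype differences of Gli2, Gli3 and Boc, was not tested. In sorted populations, a changed share of cells that express a gene and a changed amount of RNA per cell cannot be told apart.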

How the data were processed

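Per the labels and the study's methods, the authors aligned paired-end reads of stranded poly(A) libraries to mm10 with STAR, normalised fragment counts with DESeq2 and deposited TPM by gene symbol for 8 libraries. The program that counted fragments, its annotation and its use of strand are not given in the sources used here. Of 55385 entries per library, 109 further entries of 106 repeated symbols were left out. With exon lengths from GENCODE release 21 of the mouse (53275 symbols matched), low values (under 50 fragments) were whole to within 0.02 in 98.7% to 98.9% of cases, which gave the depth.

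Libraries were brought to 1 scale with a trimmed mean (30%) of their log ratios, and log2(TPM + 1) was fitted with limma 3.58.1 (lmFit, eBayes with a trend) in R 4.3.3, on the 4 libraries of a day for genotype and on all 8 for day and interaction. Genes needed at least 10 fragments in 2 libraries and 15 over those fitted, or a mean TPM of 1 where no length was known. P-values were adjusted (Benjamini-Hochberg) over all genes tested. Genotype thresholds followed the study's methods. Simulated data with known changes were run through the fits, except the comparison of days in cKO, and scored at an adjusted p under 0.1. That run does not test the call rules used at 3 dpi or between days. The members and gene lists were chosen with earlier results of these data known. Named genes were the members, Osr1, 3 ligands, at most 3 called genes of smallest p per list and comparison, and 3 most alike genes each for Gli1, Ptch1 and Hhip. Bcl2, Timp3, Grem1 and Bmp4 were added after their values were seen. Alternatives were other scalings, filters and pseudocounts, robust eBayes, limma-voom on recovered fragments, a replicate block, other thresholds, other sets of libraries and fits without single libraries. Figures were drawn with Python 3.11.15 and matplotlib 3.10.9. Reads were not analysed here.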

Additional observations from a re-analysis of the deposited data

Results flagged for a closer look

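Among the 9 Hedgehog genes and the list genes called in any comparison, 4 had both cKO libraries above both Ctrl libraries at 3 dpi and both below them at 7 dpi, on the deposited and on the scaled values alike, so that their genotype differences pointed in opposite directions at the 2 days. On the scaled values, 3.26% of the 15043 genes tested at both days showed this pattern. The list genes searched had first to be called, so that the count of 4 cannot be set directly against that share. The interaction values (difference at 7 dpi minus that at 3 dpi, log2 scale, limma over all 8 libraries) were -0.99 for Gli2 (adjusted p = 0.625), -0.50 for Gli3 (adjusted p = 0.659), -1.03 for Scube2 (adjusted p = 0.583) and -0.77 for Bcl2, an inhibitor of cell death (adjusted p = 0.625). None of these 4 passed an adjusted p under 0.05, and since they were picked out for this pattern their values are descriptions. Each day's groups are 2 libraries, and pool size differs between the days, so that day and pool size cannot be told apart.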

How the results depend on the processing

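At 3 dpi the count of 1 called member became 0 with the deposited TPM, median of ratios scaling, a pseudocount of 0.1, a mean TPM of at least 1, robust eBayes, the replicate block or an adjusted p under 0.1, and 2 (Gli2 and Smo) in the fit of all 8 libraries, which called 1802 of 17371 genes. It ranged from 0 to 3 over fits that each left out 1 library, with 3 (Boc, Hhip and Smo) without Ctrl replicate 2, where 2800 of 15315 genes were called. At 7 dpi the count was 3 at an unadjusted p under 0.05 and ranged from 0 to 1 without single libraries. In Ctrl, the count of 7 between days ranged from 5 to 6 without single libraries and from 5 to 7 otherwise. In cKO, the count of 4 became 0 with no filter on low values and ranged from 0 to 5 without single libraries. It was 0 without cKO replicate 2 of either day and 2 without cKO replicate 1 of 3 dpi or either Ctrl library of 7 dpi. The interaction count of 0 became 2 at an unadjusted p under 0.05. The cause of these moves was not tested. Replicate numbers are shared between genotypes, but the deviations of same-numbered libraries correlated at -0.13 (3 dpi) and 0.064 (7 dpi) and they hold different animals, so that the numbers do not pair them; the replicate block gave 0, 0, 6, 3 and 0 called members in the 5 comparisons. Signs turned for small values. Without scaling, which moved the median of all genes by 0.11 at 7 dpi, Cdon, Gas1 and Smo became 0.037, 0.093 and 0.11 at 7 dpi, Smo -0.046 between days in Ctrl, and Ptch1 0.0079 in the interaction. Hhip at 7 dpi became -0.00077 with a pseudocount of 0.1 and -0.0016 with limma-voom, and Boc at 3 dpi 0.0074 in the fit of all 8. Without single libraries, the 3 dpi values ranged from -0.35 to 0.29 (Boc), -0.050 to 0.32 (Gas1) and -0.17 to 0.60 (Gli1), and the 7 dpi values from -0.28 to 0.32 (Hhip), -0.35 to 0.16 (Cdon), -0.25 to 0.17 (Gas1) and -0.056 to 0.0080 (Smo). Likewise Smo ranged from -0.18 to 0.22 between days in Ctrl, Hhip from -0.44 to 0.17 in cKO, and the Gas1 interaction from -0.39 to 0.021. Depth limits Hhip most, with a counting error of 12.5% at its lowest count.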
